A study of Homo sapiens with 6 samples.

Results

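The transcripts of the insulin-like growth factor (IGF) system were examined in WM164 melanoma cells that carried either an HDAC8 expression vector or an empty expression vector (EV). HDAC8 removes acetyl groups from histones and other proteins, and WM164 is a human melanoma cell line with the BRAF V600E mutation, which both groups share. The 10 genes were taken by name from the 60504 genes of the count table, and comprise 3 receptors (IGF1R, INSR, IGF2R), 1 ligand (IGF2) and 6 binding proteins (IGFBP2 to IGFBP7). RNA-seq libraries were made from 3 EV and 3 HDAC8 replicates. Cells were transfected with plasmid and kept under hygromycin, and whether each line was a pool or a single clone was not given in the sources used here. The labels number the replicates but do not say that they were separate cultures, so p-values measure the spread between these libraries, which may be technical.

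IGF1R is the receptor tyrosine kinase that carries the growth and survival signal of IGF1 and IGF2, and INSR is its close relative and the receptor for insulin. IGF2R has no kinase: it binds IGF2 and mannose-6-phosphate-tagged enzymes and delivers them to lysosomes, so it removes ligand. The IGF binding proteins are secreted proteins that hold IGF1 and IGF2 outside the cell, and they can restrain or prolong signalling depending on proteases and matrix. IGFBP7 binds IGFs weakly and also binds insulin and matrix components, and it has been studied as a secreted product of BRAF-mutant melanocytic cells.

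In the libraries labelled HDAC8, IGFBP7 rose about 32-fold, IGFBP5 rose 1.64-fold and IGFBP2 fell 1.55-fold. IGF1R and INSR were higher by 1.31-fold and 1.47-fold, which is under the minimum fold change used for a call. Values are normalized counts, the expected read count of a gene divided by the DESeq2 size factor of its library. IGF2, IGFBP3 and IGFBP4 had few or no reads, and IGFBP6 was low and variable. Of the 10 genes, 9 passed the filter on low counts (a total of at least 10 counts), and 2 were called higher and 1 lower. To be called, a gene needed a DESeq2 adjusted p under 0.05 and a change of at least 0.58 on the log2 scale, up or down. Among all genes, 11.0% of the 21021 genes with an adjusted p were called, 5.57% higher and 5.44% lower. In 6 of the 9 genes past this filter every library of 1 group lay above all libraries of the other, against 24.0% of all 26162 genes past it. The 6 include IGF2, where EV 2 and HDAC8 2 both held 15 reads and differed through the size factors alone. The 10 genes were chosen with earlier results of these data known. In bulk samples such as these, fewer cells that express a gene and less RNA per cell cannot be told apart.

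**Figure D1:**
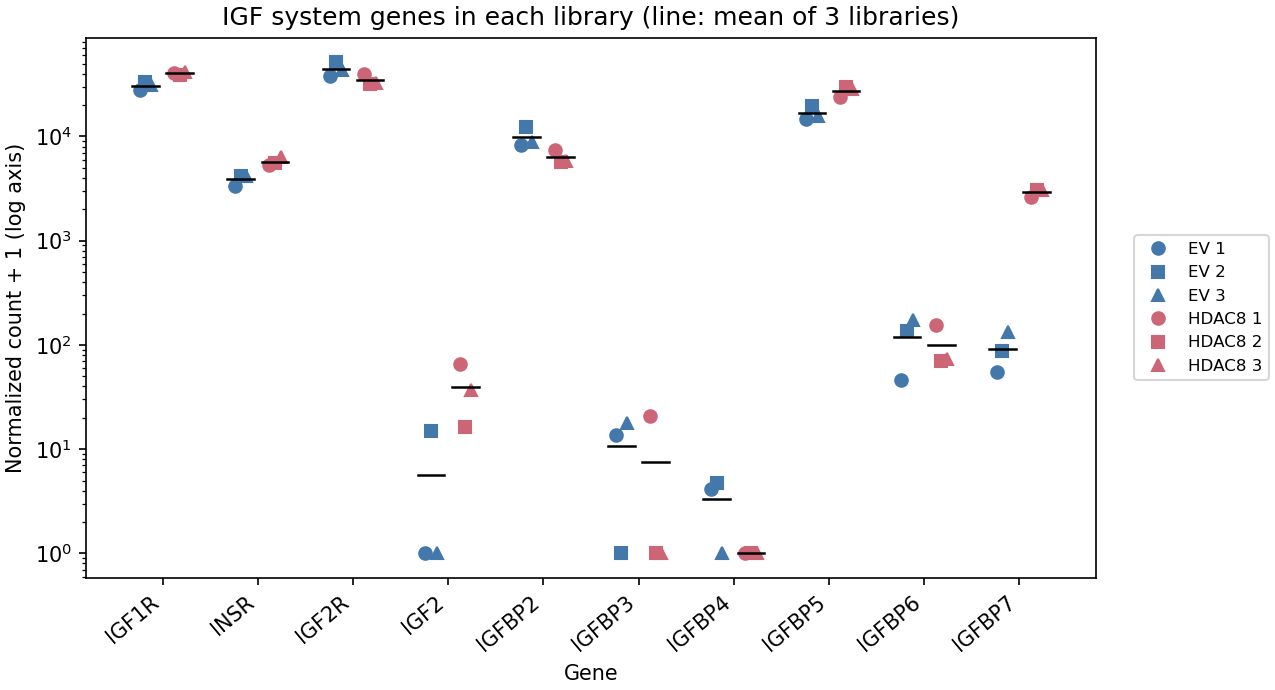
Normalized count plus 1 (log axis) of the 10 IGF system genes in each of the 6 libraries, with blue symbols for EV, red symbols for HDAC8, a symbol shape for each replicate number and a black line at the group mean. IGFBP7 lies between 54.5 and 131 normalized counts in the EV libraries and between 2603 and 3066 in the HDAC8 libraries, while IGF2, IGFBP3 and IGFBP4 sit near the bottom of the axis in both groups.

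To show the sequence upstream of the genes whose counts separated the groups and of the receptor that removes ligand, promoters were taken from RefSeq (GRCh38.p14). Entries were matched for 8 of the 10 genes, and IGF2 and IGFBP7 were not matched. The 250 bases before the start site are printed 5′ to 3′ on the strand of the gene. Capitals mark the GC box GGGCGG, which Sp1 family factors bind, and the E-box CACGTG, which MYC, MITF and TFE factors bind, each on either strand. The first entry is given for IGFBP2, which has 3.
IGFBP5 (chr2:216695550-216695799, minus strand): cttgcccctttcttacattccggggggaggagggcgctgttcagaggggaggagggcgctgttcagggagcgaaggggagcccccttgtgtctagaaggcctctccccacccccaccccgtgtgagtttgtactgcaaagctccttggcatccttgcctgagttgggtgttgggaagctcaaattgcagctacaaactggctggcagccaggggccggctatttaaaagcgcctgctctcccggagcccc
IGFBP2 (chr2:216632578-216632827, plus strand): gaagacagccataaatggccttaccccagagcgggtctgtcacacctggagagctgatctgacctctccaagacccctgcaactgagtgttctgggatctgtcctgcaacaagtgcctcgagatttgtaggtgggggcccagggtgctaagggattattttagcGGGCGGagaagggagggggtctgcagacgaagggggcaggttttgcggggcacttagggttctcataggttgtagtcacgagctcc
IGF1R (chr15:98648289-98648538, plus strand): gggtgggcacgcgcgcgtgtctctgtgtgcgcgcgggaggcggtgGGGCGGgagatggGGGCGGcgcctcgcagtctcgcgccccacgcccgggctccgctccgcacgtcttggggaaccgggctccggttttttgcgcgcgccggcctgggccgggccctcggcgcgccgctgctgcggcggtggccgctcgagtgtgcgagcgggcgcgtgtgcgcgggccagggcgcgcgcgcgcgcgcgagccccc
INSR (chr19:7294415-7294664, minus strand): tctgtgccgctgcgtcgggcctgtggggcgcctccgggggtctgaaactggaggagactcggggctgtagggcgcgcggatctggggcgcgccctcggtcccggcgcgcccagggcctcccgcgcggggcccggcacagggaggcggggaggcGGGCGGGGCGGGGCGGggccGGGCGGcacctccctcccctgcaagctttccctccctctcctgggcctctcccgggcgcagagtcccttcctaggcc
IGF2R (chr6:159968832-159969081, plus strand): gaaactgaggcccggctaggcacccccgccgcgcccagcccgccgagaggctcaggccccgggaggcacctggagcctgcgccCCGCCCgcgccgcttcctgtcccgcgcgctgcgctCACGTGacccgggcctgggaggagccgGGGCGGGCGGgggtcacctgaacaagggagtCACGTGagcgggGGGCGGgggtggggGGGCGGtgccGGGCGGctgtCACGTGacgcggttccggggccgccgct

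The letters differed between these windows. IGF1R, INSR and IGF2R windows had a GC content of 81.2%, 78.4% and 79.2%, against 61.2% for IGFBP5, 56.8% for IGFBP2 and a median of 58% over 35116 windows of the same length. The other IGFBP2 entries had 69.2% and 56.4%. Among the binding proteins whose windows are not printed, IGFBP3 had 76.0%, IGFBP4 71.6% and IGFBP6 61.2%. GGGCGG was found in 42.6% of all windows, and 13.9% of windows held 3 or more matches. It occurred 2 times in IGF1R, 4 times in INSR and 6 times in IGF2R, where neighbouring matches share bases, and 1 time in IGFBP2, but not in IGFBP5. In the windows not printed, GGGCGG occurred 2 times in IGFBP3, 1 time in IGFBP4 and 1 time in IGFBP6. CACGTG was found in 6.34% of all windows and 3 times in IGF2R, a number that 0.080% of windows reach. The AP-1 motif TGANTCA (6.57% of windows) and the E-box CATGTG (9.42%) occurred in none of the 10 windows of the 8 genes on either strand. GGGCGG and CACGTG were added to the search after the values had been seen. A match is a description of the letters and was not tested as a binding site.

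IGFBP7 (ENSG00000163453, GRCh38 chromosome 4, 57030773 to 57110385, minus strand) changed most among the 10 genes. Its normalized counts were 54.5, 86.9 and 131 in EV replicates 1 to 3 and 2603, 3055 and 3066 in HDAC8 replicates 1 to 3. The lowest HDAC8 library was far above the highest EV library, and the groups did not overlap. The means were 90.8 ± 38.4 and 2908 ± 264 (SD, n = 3), which is a log2 difference of 5.0 (SE 0.26, with an adjusted p of 1.41e-76 by DESeq2) and a 95% interval of 22.3-fold to 45.8-fold. Across 15 alternative settings its log2 fold change ran from 4.74 to 5.35 and it was called in all 15. Among the 1046 genes called higher with a mean of at least 50 normalized counts and groups that did not overlap, it ranked 21st by log2 fold change. Without these 2 conditions, 99 genes called higher, IGFBP7 included, had a log2 fold change at least as large. The antisense gene IGFBP7-AS1 overlaps the first 624 bases of IGFBP7 and had 4 counts in EV 2 and 0 in the other libraries; whether counting used strand is not given in the sources used here. Of the other genes within 500000 bases, 4 had an adjusted p and 0 were called by DESeq2. POLR2B, an RNA polymerase II subunit whose gene partly overlaps the end of IGFBP7, had a log2 fold change of 0.22 (DESeq2 adjusted p = 0.338).

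IGFBP5 and IGFBP2 are neighbours on chromosome 2 and moved in opposite directions. IGFBP5 (ENSG00000115461, 216672105 to 216695549, minus strand) is a matrix-associated binding protein. It had 14611, 19561 and 15770 normalized counts in EV and 24125, 29697 and 28299 in HDAC8. Every HDAC8 library was above every EV library, with means of 16647 ± 2589 and 27374 ± 2899 (SD, n = 3). On the log2 scale the difference was 0.72 (SE 0.15, with an adjusted p of 3.51e-05 by DESeq2), a rise of 1.64-fold with a 95% interval of 1.35-fold to 2.01-fold. When the test asked whether the change exceeded the minimum fold change itself, the call was lost, and IGFBP5 was called in each of the other 14 alternatives.

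IGFBP2 (ENSG00000115457, 216632828 to 216664436, plus strand), a binding protein that carries an integrin-binding motif, had 8257, 12231 and 8889 normalized counts in EV and 7427, 5667 and 5837 in HDAC8. All 3 HDAC8 libraries were below the EV libraries, with EV 2 the highest and HDAC8 1 close to EV 1. The means were 9792 ± 2135 and 6310.2 ± 971 (SD, n = 3), a log2 difference of -0.63 (SE 0.18, with an adjusted p of 0.00456 by DESeq2), with a 95% interval of 1.22-fold to 1.97-fold lower. The call was lost when the test asked for more than the minimum fold change, and when any of 3 libraries was left out. Without EV 2 the log2 fold change was -0.44 (DESeq2 adjusted p = 0.0788), without HDAC8 2 it was -0.56 (adjusted p = 0.0367) and without HDAC8 3 it was -0.58 (adjusted p = 0.0611). Both other tests called it, with an adjusted p of 0.0145 by the edgeR quasi-likelihood test and 0.0159 by limma-voom.

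The ends of IGFBP2 and IGFBP5 face each other across 7668 bases. Of the 7 other genes with an adjusted p within 500000 bases of both, 0 were called by DESeq2. Their neighbour XRCC5, a DNA repair gene, had a log2 fold change of 0.19 (DESeq2 adjusted p = 0.479). RPL37A, a ribosomal protein gene, had -0.09 (DESeq2 adjusted p = 0.847). Within a library, the count of IGFBP5 over that of IGFBP2 does not depend on scaling between libraries. This ratio was 1.77, 1.60 and 1.77 in EV and 3.25, 5.24 and 4.85 in HDAC8. The ratio was higher in every HDAC8 library, with means of 1.71 ± 0.0996 and 4.45 ± 1.06 (SD, n = 3). This separation follows from the counts above, where IGFBP5 was higher and IGFBP2 lower in every HDAC8 library. It is therefore no further evidence. Neither this ratio nor that of IGF1R over IGF2R was among the planned results.

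**Figure D2:**
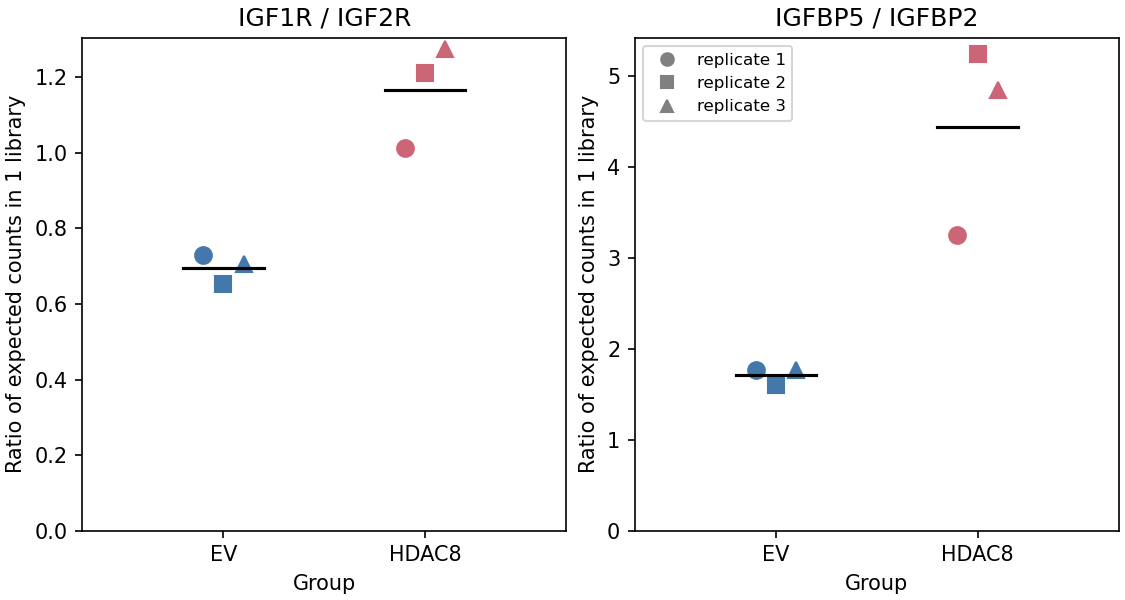
Ratio of expected counts within each library, IGF1R over IGF2R (left) and IGFBP5 over IGFBP2 (right), for the 3 EV (blue) and 3 HDAC8 (red) libraries, with a line at each group mean. HDAC8 1 is the lowest HDAC8 library in both panels, at 1.01 and 3.25, and is still above all EV libraries, which reach 0.728 and 1.77.

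The remaining binding proteins were at low counts. IGFBP6 (ENSG00000167779, chromosome 12, 53097436 to 53102345, plus strand), which prefers IGF2 over IGF1, had 45.1, 135 and 173 normalized counts in EV and 153, 68.6 and 71.9 in HDAC8. The groups overlapped, and IGFBP6 differed by -0.27 on the log2 scale (SE 0.66, with an adjusted p of 0.899 by DESeq2) with a 95% interval of -1.56 to 1.02. IGFBP3 (ENSG00000146674, chromosome 7, 45912245 to 45921874, minus strand), the main carrier of IGFs in blood, had 12, 0 and 17 counts in EV and 23, 0 and 0 in HDAC8. Its reads came and went within both groups, and a change was not detectable at this depth (log2 fold change -0.57, SE 2.58, adjusted p = 0.953 by DESeq2). IGFBP4 (ENSG00000141753, chromosome 17, 40443450 to 40457725, plus strand) had 3, 4 and 0 counts in EV and 0 counts in all 3 HDAC8 libraries. It was under the filter, and a count of 0 allows up to 3 counts, or 2.57 to 3.27 normalized counts depending on the library.

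Taking the binding proteins as a group changes what is compared, because transcripts of different length give different numbers of reads. Normalized counts were therefore divided by the length in kilobases of the longest transcript in GENCODE release 44. Summed over the 6 binding proteins, this level was 4295, 6084 and 4787 per kilobase in EV and 7511, 8243 and 8068 in HDAC8, so every HDAC8 library was higher. IGFBP5 made up 51.5% to 54.5% of the sum in EV and 51.5% to 57.7% in HDAC8, and these ranges overlapped. IGFBP2 made up 42.1% to 45.5% in EV and 15.6% to 22.4% in HDAC8. IGFBP7 made up 0.890% to 1.92% in EV and 24.3% to 26.6% in HDAC8. These shares rest on the longest transcript and were not computed for other lengths.

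**Figure D3:**
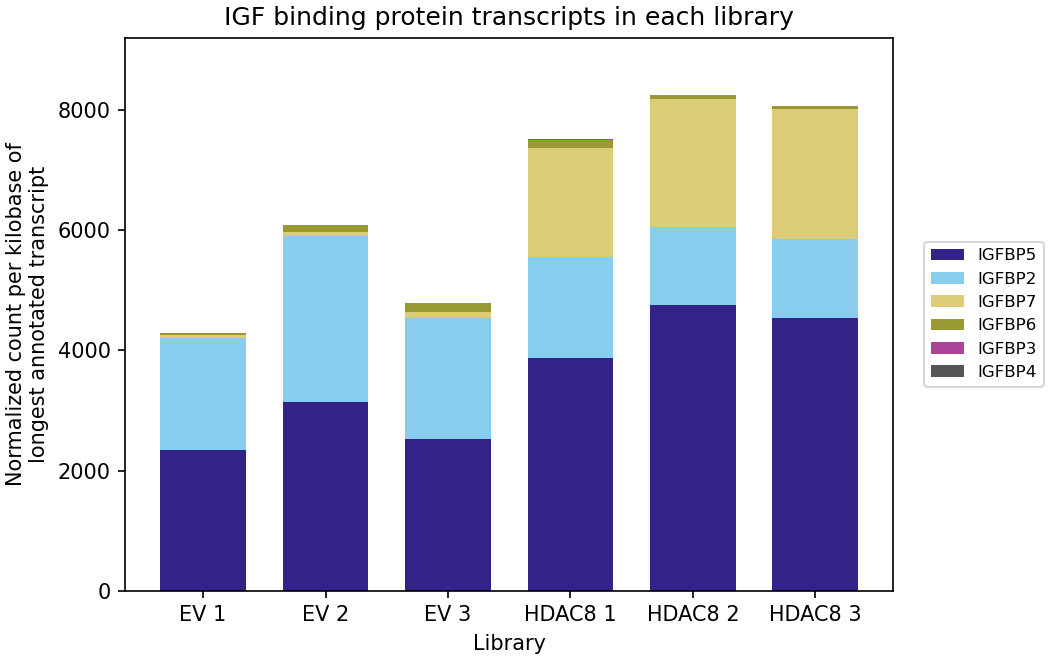
Stacked bars of normalized counts per kilobase of the longest annotated transcript for IGFBP2 to IGFBP7 in each library, from 0. The IGFBP7 share (sand) is at most 1.92% in an EV library and at least 24.3% in an HDAC8 library, the IGFBP2 share (light blue) is smaller in the HDAC8 libraries, and IGFBP3 and IGFBP4 are too low to see.

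Receptors were examined next. IGF1R (ENSG00000140443, chromosome 15, 98648539 to 98964530, plus strand) had 27813, 33553 and 30968 normalized counts in EV and 40603, 38786 and 41227 in HDAC8. The groups did not overlap, and the means were 30778 ± 2875 and 40205 ± 1268 (SD, n = 3). IGF1R differed by 0.39 on the log2 scale (SE 0.12, with an adjusted p of 0.0178 by DESeq2), or 1.31-fold with a 95% interval of 1.11-fold to 1.54-fold. IGF1R was not called in any of 15 alternatives, and the fold change stayed under the minimum in all of them. The adjusted p was 0.166 by the edgeR quasi-likelihood test and 0.0239 by limma-voom. By DESeq2 it was 0.208 without EV 1, 0.126 without EV 3, 0.132 without HDAC8 3 and 0.0816 with a replicate block. Leaving aside the test against the minimum fold change, the adjusted p was under 0.05 in 9 of 14 alternatives.

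INSR (ENSG00000171105, chromosome 19, 7112255 to 7294414, minus strand) had 3373, 4134 and 4145 normalized counts in EV and 5284, 5562 and 6296 in HDAC8. It too was higher in every HDAC8 library, with means of 3884 ± 442 and 5714 ± 523 (SD, n = 3). INSR differed by 0.56 on the log2 scale (SE 0.15, with an adjusted p of 0.00411 by DESeq2), or 1.47-fold with a 95% interval of 1.19-fold to 1.81-fold. The fold change lay just under the minimum, and INSR was called in 5 of 15 alternatives. With size factors from total counts it was 0.60, and it was 0.60 without EV 2, 0.60 without EV 3, 0.61 without HDAC8 1 and 0.58 without HDAC8 2. Without EV 1 the DESeq2 adjusted p was 0.0863, and without HDAC8 3 it was 0.0831.

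IGF2R (ENSG00000197081, chromosome 6, 159969082 to 160113507, plus strand) had 38182, 51421 and 43800 normalized counts in EV and 40139, 32033 and 32380.0 in HDAC8. HDAC8 1 lay above EV 1, so the groups overlapped. The means were 44468 ± 6645 and 34851 ± 4583 (SD, n = 3), which differ by -0.35 on the log2 scale (SE 0.15, with an adjusted p of 0.103 by DESeq2) and a 95% interval of -0.64 to -0.06. Without HDAC8 1 the log2 fold change was -0.47 (DESeq2 adjusted p = 6.90e-04), which is still under the minimum in size, and without EV 2 it was -0.24 (adjusted p = 0.398). The count of IGF1R over that of IGF2R was 0.728, 0.653 and 0.707 in the EV libraries. In the HDAC8 libraries it was 1.01, 1.21 and 1.27, above every EV library, with means of 0.696 ± 0.0391 and 1.17 ± 0.137 (SD, n = 3).

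**Figure D4:**
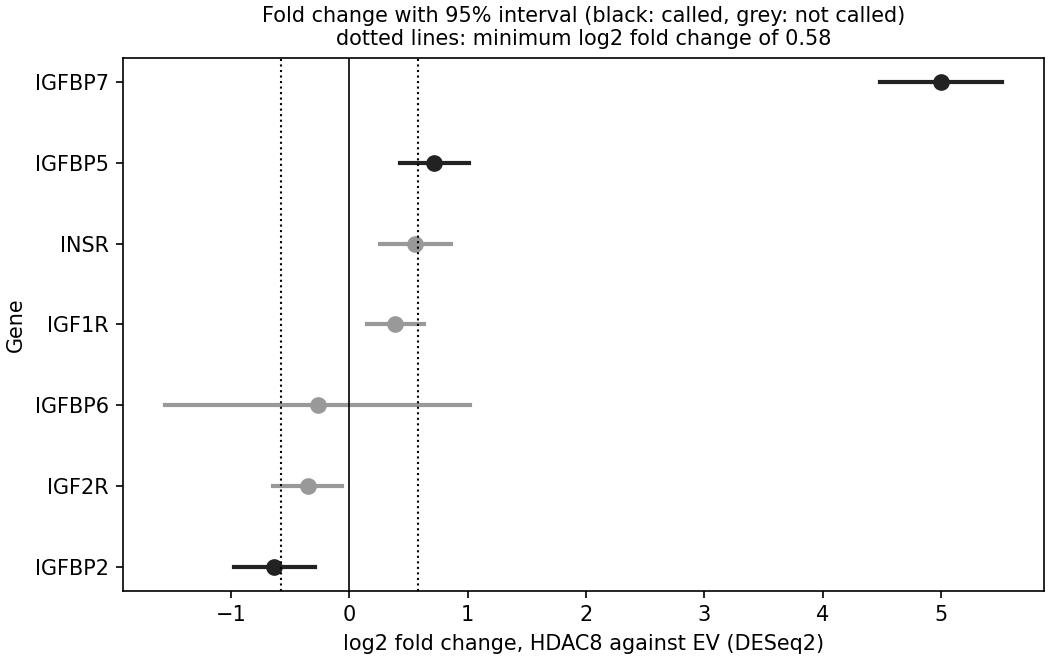
DESeq2 log2 fold change of HDAC8 against EV with its 95% interval for the 7 IGF system genes whose group means sum to over 100 normalized counts, black where called and grey where not, with dotted lines at 0.58 and -0.58. IGFBP7 stands at 5.0, IGFBP5 (0.72) and IGFBP2 (-0.63) lie just beyond the dotted lines, and INSR (0.56) lies just inside.

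The ligand was at the edge of detection. IGF2 (ENSG00000167244, chromosome 11, 2129112 to 2158391, minus strand) had 0, 15 and 0 counts in EV and 75, 15 and 33 in HDAC8. EV 2 and HDAC8 2 held the same number of reads, and their normalized counts of 14.01 and 15.4 were separated by the size factors alone. IGF2 differed by 3.03 on the log2 scale (SE 1.62, with an adjusted p of 0.238 by DESeq2), and the 95% interval ran from -0.13 to 6.20. IGF2 was called in 2 alternatives, without EV 2 (log2 fold change 7.68, DESeq2 adjusted p = 0.00489) and with a replicate block (5.99, DESeq2 adjusted p = 0.0208), although the replicate numbers did not pair the libraries. INS-IGF2, a read-through gene that overlaps IGF2, had 0 counts in all 6 libraries. The other ligands were as low: IGF1 had 0, 11.2 and 0.985 normalized counts in EV and 47.0, 9.22 and 27.2 in HDAC8, which overlap (log2 fold change 2.77, DESeq2 adjusted p = 0.319), and INS had 0 counts in all 6 libraries.

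Levels were compared between genes per kilobase. In EV the order was IGF2R (3125 ± 467 normalized counts per kilobase), IGFBP5 (2668 ± 415), IGF1R (2516 ± 235), IGFBP2 (2218 ± 484), INSR (410.5 ± 46.7), IGFBP6 (100.2 ± 56.0) and IGFBP7 (63.6 ± 26.9), all SD with n = 3. From IGF2R down to IGFBP2 each step was smaller than the larger of both SDs, as was the step from IGFBP6 to IGFBP7, whereas the step from IGFBP2 to INSR was larger than both. In HDAC8 the order was IGFBP5 (4388 ± 465), IGF1R (3286 ± 104), IGF2R (2449 ± 322), IGFBP7 (2038 ± 185), IGFBP2 (1429.6 ± 220), INSR (604 ± 55.3) and IGFBP6 (83.1 ± 40.6), where each step was larger than both SDs. IGFBP7 thus moved from the 7th to the 4th place and was above IGFBP2. The place of IGF2R depended on the length used. Over the union of annotated exons it was 1966 per kilobase in EV, below IGFBP2 at 2065, and 1541 in HDAC8, close to IGFBP7 at 1507. On that scale IGFBP2 was 1331 in HDAC8, so the group mean of IGFBP7 was above it by a smaller step than over the longest transcript. The SD was not computed on that scale, so the order of IGFBP7 and IGFBP2 there is not settled.

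Genes that act around this system were then read from 3 lists with 66 genes in all, of which 61 passed the filter and 57 had an adjusted p. DESeq2 called 2 higher and 7 lower, or 15.8% of the 57 against 11.0% among all genes, with a median log2 fold change of -0.04 against -0.00307 over the table. By direction, 3.51% were called higher and 12.3% lower, against 5.57% and 5.44% of all genes. All 9 called genes had groups that did not overlap. The lists were written with earlier results of these data known.

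Among the other ligands, binding proteins and proteases, 1 of 10 was called higher and 1 lower. Each is 10% of that list, against 5.57% called higher and 5.44% lower among all genes. STC1, a secreted glycoprotein that inhibits the IGFBP protease PAPPA, had 46.1, 59.8 and 33.5 normalized counts in EV and 416, 513 and 456 in HDAC8. STC1 rose by 3.31 on the log2 scale (SE 0.40, with an adjusted p of 1.29e-14 by DESeq2) and was called in all 15 alternatives. PAPPA itself, which cleaves IGFBP4 and IGFBP5, had 133 to 214 normalized counts in EV and 173 to 192 in HDAC8, and the groups overlapped (log2 fold change 0.15, DESeq2 adjusted p = 0.917). HTRA1, a serine protease that can cleave IGFBP5, fell by 0.59 on the log2 scale (SE 0.19, with an adjusted p of 0.0172 by DESeq2). That call was lost in 6 of 15 alternatives, among them the fits without EV 2 (-0.50, adjusted p = 0.135), without EV 3 (-0.57, adjusted p = 0.117) and without HDAC8 2 (-0.50, adjusted p = 0.0852). IGFBP1 had reads in HDAC8 2 alone, at 21 counts, and no adjusted p. The mRNA-binding genes IGF2BP1, IGF2BP2 and IGF2BP3 had log2 fold changes of -0.07, 0.42 and -0.17 and were not called.

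Among receptor adaptors and inhibitors, 1 of 17 was called higher and 1 lower. Each is 5.88% of that list, against 5.57% called higher and 5.44% lower among all genes. IRS1, the docking protein that links IGF1R and INSR to PI3K, had 947, 1223 and 1219 normalized counts in EV and 2939, 2992 and 3459 in HDAC8. Every HDAC8 library exceeded every EV library, and IRS1 rose by 1.47 on the log2 scale (SE 0.18, with an adjusted p of 8.08e-14 by DESeq2). Its relative IRS2 had 3316 to 4262 in EV and 3777 to 4203 in HDAC8, which overlap (log2 fold change 0.14, SE 0.16, adjusted p = 0.709 by DESeq2). PTPN1, the phosphatase that dephosphorylates INSR and IGF1R, fell from 9753 to 10546 normalized counts in EV to 4097 to 5605 in HDAC8 (log2 fold change -0.99, SE 0.15, adjusted p = 6.33e-09 by DESeq2).

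In the PI3K, AKT and mTOR core, 0 of 30 genes were called higher by DESeq2 and 5 lower. That is 0% higher and 16.7% lower, against 5.57% and 5.44% among all genes. PIK3R3, a regulatory subunit of PI3K, had 3829, 4196 and 4358 normalized counts in EV and 1322, 1513 and 1318 in HDAC8 (log2 fold change -1.58, SE 0.16, adjusted p = 6.24e-21 by DESeq2). AKT1 (0.13, DESeq2 adjusted p = 0.755) and AKT2 (0.10, DESeq2 adjusted p = 0.852), kinases downstream of PI3K, had groups that overlapped. PIK3CD, a catalytic subunit, changed by -0.82 (DESeq2 adjusted p = 6.94e-04) and MLST8, a subunit of both mTOR complexes, by -0.75 (DESeq2 adjusted p = 0.0148). MLST8 lost its call with a replicate block (DESeq2 adjusted p = 0.0563) and without EV 2 (0.125), EV 3 (0.121) or HDAC8 3 (0.0969).

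**Figure D5:**
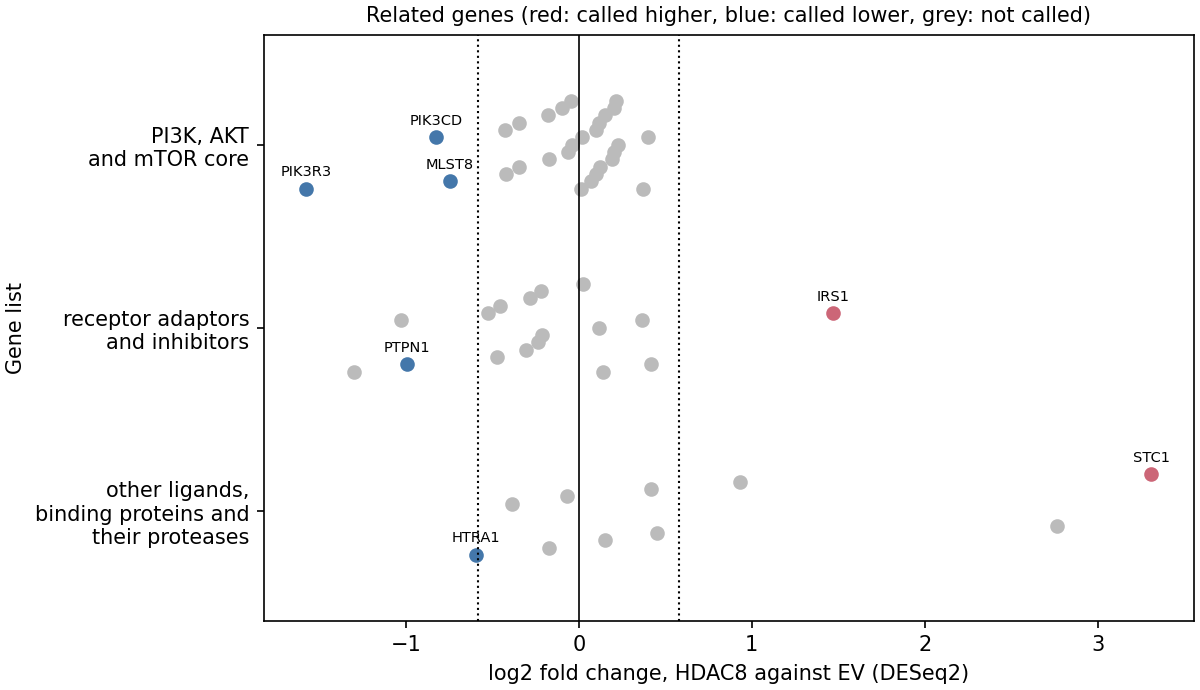
DESeq2 log2 fold change of HDAC8 against EV by list, for the related genes with an adjusted p except 2 that are not shown. Red marks the 2 called higher, blue those called lower and grey the others, most of which are not named in the text. Dotted lines stand at 0.58 and -0.58. STC1 (3.31) and IRS1 (1.47) are the 2 called higher, and PIK3R3 (-1.58) is the lowest of the labelled genes in the PI3K, AKT and mTOR core.

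Features of the libraries that touch these results were as follows. Total counts ran from 34741083 to 42041462 and overlapped between the groups. The HDAC8 transcript had 384 to 479 normalized counts in EV and 446 to 485 in HDAC8 (log2 fold change 0.15, SE 0.28, adjusted p = 0.856 by DESeq2), so the transcript did not check the labels, and each direction above is that of the labelled libraries. Mitochondrially encoded transcripts took 9.66% to 12.8% of counts in EV and 4.46% to 7.94% in HDAC8, and with these genes left out 2 of the 10 IGF system genes were called higher and 1 lower. HDAC8 1 stood apart on the next principal component after the one that separated the groups, and without it 3 were called higher and 1 lower, the added gene being INSR. The summed level of 7 melanoma markers was 244898 to 328728 in EV and 137043 to 182218 in HDAC8, with 5 of them called lower. Most of this sum was PMEL, with means of 200032 in EV and 110587 in HDAC8. Of 5 fibroblast markers 0 were called by DESeq2 and DCN had 0 counts throughout, with a sum of 2347 to 2869 against 1150.1 to 2188. Most of that sum was LUM alone, with means of 2462 in EV and 1629 in HDAC8. The leukocyte markers CD68 and CD3E were called higher (their list's sum was 2286 to 3302 against 4273 to 6165), while PTPRC, which defines leukocytes, had at most 2.57 normalized counts. The part of these markers in the IGF results was not tested.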

How the data were processed

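RNA-seq of 3 EV and 3 HDAC8 libraries of WM164 cells was analysed. The authors trimmed reads with Trimmomatic, aligned them with STAR and deposited RSEM expected counts per gene, not scaled between libraries; an expected count shares reads between similar genes. The labels and the methods of the study name different RNA extraction kits. Genome build, annotation release, strand setting and duplicate removal are not given in the sources used here. Ensembl identifiers were matched to GENCODE release 44 (GRCh38) for positions and lengths.

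After rounding, DESeq2 1.42.0 (R 4.3.3; Wald test, two-sided) was run over 26162 genes with at least 10 counts in total, with Benjamini-Hochberg adjustment over the whole table and no covariates. Of these, 5141 had no adjusted p. Intervals are at the 95% level. A count of 0 was read as allowing up to 3 counts; no molecular identifiers are mentioned, so reads may be copies of 1 molecule, and this limit and the counts cover counting error only. Alternatives were edgeR 4.0.16, limma-voom (limma 3.58.1), other scalings and filters, a replicate block, no mitochondrial genes, a test against the fold change minimum and each library left out. The fit was tested on simulated data for HDAC8 against EV over 23829 genes. There DESeq2 made 74 false calls, edgeR 29 and limma-voom 10. For each tool this was a larger share of its calls than the adjusted p threshold of 0.05 aims for. Of 86 planted changes of 1 on the log2 scale, DESeq2 recovered 39, edgeR 42 and limma-voom 36. Of 114 planted changes of 2, they recovered 100, 96 and 94. The planted genes were far fewer than the 2313 called in the data, so the share of false calls may differ there. Small changes were missed most often, and the size and adjusted p of the false calls were not recorded. Pairs of libraries of a group differed by more than sampling noise.

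The 10 genes and the related lists were chosen with earlier results of these data known. Named related genes are those called with a mean of at least 50 normalized counts and groups that do not overlap, and IRS1, IRS2, IGF1, INS, IGFBP1, AKT1, AKT2 and PAPPA whatever their values (2 further genes of the related lists are not reported here by name, and count in the totals); the IGF2BP genes, the INS-IGF2 gene and neighbouring genes were named after their values had been seen.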

Additional observations from a re-analysis of the deposited data

How the results depend on the processing

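Of 133 log2 fold changes of 9 IGF system genes under alternative settings (IGFBP4 was not tested), 117 kept direction and side of the threshold, 5 lost a call, 7 gained one and 4 changed sign. When tested against the fold change minimum itself, 1 member was called higher and 0 lower, and 2 related genes were higher and 1 lower. Over the table, 292 genes were then higher and 291 lower, since this test asks for more than the main one. With each library left out in turn, 2 to 4 members were higher and 0 to 1 lower, and 877 to 1218 genes of the table were higher and 746 to 1378 lower, the lowest without EV replicate 3. Changes of sign occurred in genes that were not called: IGFBP3 ran from -5.66 to 0.062, IGFBP6 from -0.75 to 0.11 and AKT2 from -0.016 to 0.23 (log2) across these fits. The cause was not tested. The replicate numbers gave no pairing: the correlation between libraries sharing a number, taken on deviations from group means, was -0.0273, -0.0663 and 0.0399, and 0 of 6 libraries correlated best with its own number. With the replicate block, 3 members were higher (IGF2 was added, at a log2 fold change of 5.99) and 1 lower, 2 related genes were higher and 5 lower, and 1075 genes of the table were higher and 1078 lower. Over the union of exons the level per kilobase was 2208 in EV and 2884 in HDAC8 for IGF1R, 359 and 528 for INSR, 1966 and 1541 for IGF2R, and 1507 in HDAC8 for IGFBP7. IGF2, IGFBP3 and IGFBP4 had at most 75 counts in a library, and the effect of depth on them was not tested.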
